A study of Rattus norvegicus with 60 samples.

Results

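Collagens are the triple-helical proteins that form the scaffold of the extracellular matrix. Fibrillar collagens assemble into the cross-banded fibres of meninges, vessel walls and scars, basement membrane collagens form the sheets beneath endothelium and around glial endfeet, and the remaining families decorate fibrils, span membranes or build short networks. In an injured spinal cord, collagen is best known as a component of the fibrous scar laid down by fibroblast-like cells of the meninges and vessels, while methylprednisolone (MP) is a synthetic glucocorticoid, a class of steroid known to lower collagen production in several tissues. Collagen genes were taken as every gene whose symbol in the array annotation consists of Col, a type number and a chain number, on probe sets that name 1 gene only. There were 25 such genes of 14324 genes measured, read by 27 of 27342 probe sets. They comprised 10 fibrillar chains, 3 basement membrane chains (Col4a1, Col4a3 and Col4a4) and 12 others. The other chain of the main type IV molecule, Col4a2, was not analysed here.

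RNA came from the lesioned segment of the thoracic cord of female Long Evans rats and was hybridised to Rat Gene 1.0 ST arrays, 1 array per rat, 60 in all. All rats had a laminectomy, the surgical opening of the vertebral arch. SCI-MP rats (14 arrays) also received a contusion from a dropped weight and MP (30 mg/kg) dissolved in ethanol, SCI-EtOH rats (16 arrays) the same contusion and the ethanol vehicle, S-MP rats (14 arrays) no contusion and the same dose of MP, and S-EtOH rats (16 arrays) no contusion and ethanol. Each group was sampled in 2 rats at each of 7 times from 2 to 48 h (2, 4 and 6 h, 8 and 12 h, and 24 and 48 h, here 3 periods), and SCI-EtOH and S-EtOH rats also at 0 h, so an injured cord given MP has no 0 h value. Every group thus had surgery and ethanol, and no unoperated cord was included.

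The deposited values were log2 values set per probe set to lie around 0, so they give differences between samples of a gene but no absolute level, and genes were not compared in level. In a homogenised segment, fewer cells of a type and less RNA per cell cannot be told apart. Array medians lay between -0.03 and 0.11. The profiles of the 2 rats of a group and time agreed least in SCI-EtOH cords at 6 h (r = 0.19 across genes) and most in SCI-MP cords at 12 h (r = 0.92). Both SCI-EtOH rats at 6 h stood far from each other in the collagens too, with Col1a1 at 1.15 and -1.29 and Col3a1 at 0.38 and -1.11. The main collagen counts over 2 to 6 h and 2 to 48 h that rest on them are given with and without them. So are those of the interaction and the change with time. Most other values are given with them only. Neuron markers, which define this tissue, were lower in SCI-EtOH than S-EtOH cords for 6 of 6 genes. Markers of neutrophils and macrophages were higher for 4 of 5.

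Promoters are shown for 4 chains on which the results turn: 1 fibrillar and 1 basement membrane chain among those with called injury differences, and the pair of type IV chains that rose with MP. RefSeq promoter windows (300 bases, from 250 before to 50 after the start, rat build GRCr8) were matched for 20 of the 25 genes. Col1a1, Col2a1, Col3a1, Col12a1 and Col14a1 had no entry in the table used. The first 2 windows are Col1a2 (chr4:33518307-33518606, plus strand), which holds 1 CCAAT box, and Col4a1 (chr16:84885347-84885646, plus strand), which holds 2. The box is the binding sequence of the factor NF-Y, and the capitals mark it, here as ATTGG, its reading on the opposite strand.
Col1a2: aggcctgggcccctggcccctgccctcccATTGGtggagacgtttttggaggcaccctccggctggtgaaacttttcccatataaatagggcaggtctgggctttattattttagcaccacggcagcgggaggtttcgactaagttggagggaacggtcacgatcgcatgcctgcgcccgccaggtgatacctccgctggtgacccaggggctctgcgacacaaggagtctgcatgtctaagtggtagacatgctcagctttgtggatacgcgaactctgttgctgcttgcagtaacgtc
Col4a1: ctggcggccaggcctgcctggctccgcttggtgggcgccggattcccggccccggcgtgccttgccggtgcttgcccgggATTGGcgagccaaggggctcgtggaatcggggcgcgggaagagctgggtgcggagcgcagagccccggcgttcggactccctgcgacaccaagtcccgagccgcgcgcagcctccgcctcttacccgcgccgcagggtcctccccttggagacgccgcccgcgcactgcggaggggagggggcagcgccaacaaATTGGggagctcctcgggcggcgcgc
The next pair, Col4a3 (chr9:91323740-91324039, plus strand) and Col4a4 (chr9:91323528-91323827, minus strand), are head-to-head neighbours whose windows share 88 bases, in capitals, each read 5′ to 3′ on its own strand.
Col4a3: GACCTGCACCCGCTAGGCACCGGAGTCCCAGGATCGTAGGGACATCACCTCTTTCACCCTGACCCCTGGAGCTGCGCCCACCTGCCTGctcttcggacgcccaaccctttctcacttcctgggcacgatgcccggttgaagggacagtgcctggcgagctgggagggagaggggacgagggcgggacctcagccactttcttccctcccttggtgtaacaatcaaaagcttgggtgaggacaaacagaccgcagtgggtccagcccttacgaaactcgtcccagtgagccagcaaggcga
Col4a4: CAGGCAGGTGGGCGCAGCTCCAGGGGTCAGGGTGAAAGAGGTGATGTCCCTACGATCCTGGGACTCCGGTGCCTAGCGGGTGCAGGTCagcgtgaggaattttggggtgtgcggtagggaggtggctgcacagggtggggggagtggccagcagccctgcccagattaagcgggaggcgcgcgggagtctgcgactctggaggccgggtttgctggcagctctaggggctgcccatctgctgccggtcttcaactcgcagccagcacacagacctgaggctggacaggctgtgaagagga
Over both strands, CCAAT was present in 7 of the 20 collagen windows (35.0%), against 37.7% of 27457 promoters of the same length. TATAAA was present in 4 (20.0%, against 14.3%), the glucocorticoid receptor half-site AGAACA in 4 (20.0%, against 20.1%) and the AP-1 site TGACTCA in 0 (against 4.53%). Each motif was counted on its own, so overlapping matches count for both. These are letter matches only.

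The first comparison asked what contusion did to collagen transcripts without the drug, as SCI-EtOH minus S-EtOH cords. Averaged over 2 to 48 h, 6 collagen genes rose and 3 fell, and 16 did not pass the test. Col12a1, a collagen that sits on the surface of type I fibrils, rose by 0.81 ± 0.12 (log2 difference ± SE, 1.75-fold, limma adjusted p = 6.8e-07). Col4a1, the chain that builds the main basement membrane sheet, rose by 0.64 ± 0.07 (1.55-fold, adjusted p = 4.9e-09), and Col8a1, a short-chain collagen of vessel walls, by 0.41 ± 0.14 (1.33-fold, adjusted p = 0.012). Col1a2, 1 of the chains of the principal fibrillar collagen, rose by 0.37 ± 0.15 (adjusted p = 0.026), a call lost on leaving out any 1 of 7 arrays. Col14a1 and Col10a1 also rose. Col11a2, a minor fibrillar chain, fell by 0.26 ± 0.06 (adjusted p = 0.00045), as did Col2a1 and Col4a4. Of all genes, 35.1% were higher and 27.5% lower in the same comparison, so 6 and 3 of 25 are not more than the background. The median collagen difference was 0.05, against 0.04 over all genes. Without both SCI-EtOH 6 h arrays, 7 rose and 6 fell (all genes: 35.9% and 28.1%). The counts also moved when either SCI-EtOH 6 h array alone was left out. Quantile normalization, which forces one spread of values on all arrays, gave 3 higher and 4 lower (all genes: 32.2% and 26.6%).

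By array, Col12a1 spanned -1.13, 0.51 and 1.63 (lowest, median and highest) in 14 SCI-EtOH cords from 2 to 48 h and -1.12, -0.36 and 0.48 in 14 S-EtOH cords. The groups overlapped, with 8 of the 14 SCI-EtOH cords above every S-EtOH cord. Col4a1 spanned 0.03, 0.66 and 1.18 in SCI-EtOH cords and -0.29, -0.07 and 0.39 in S-EtOH cords. Here 9 of 14 SCI-EtOH cords lay above every S-EtOH cord. Col8a1 spanned -1.42, 0.34 and 2.00 in SCI-EtOH cords and -0.86, -0.06 and 1.40 in S-EtOH cords, overlapping over nearly the whole range.

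**Figure D1:**
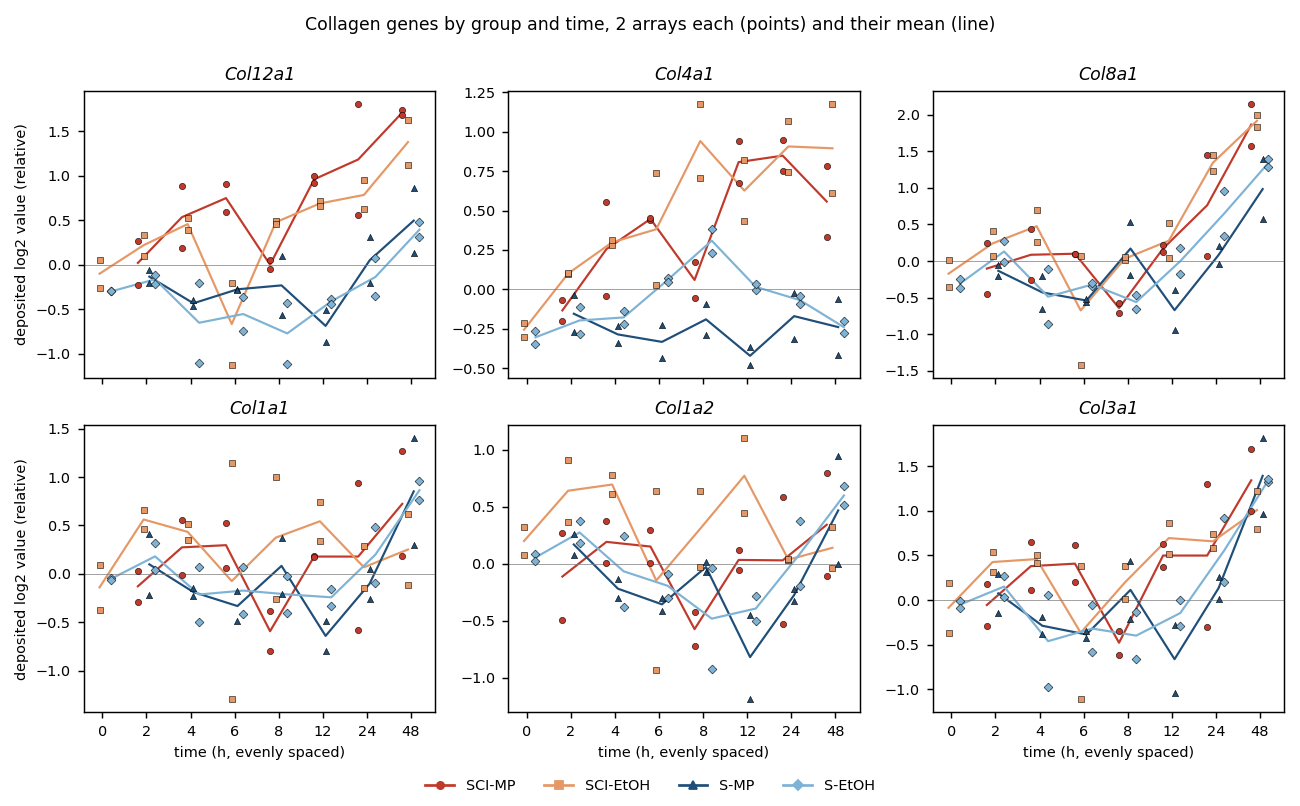
Deposited log2 values (relative, centred per probe set) of 6 collagen genes against time in hours, evenly spaced, in SCI-MP, SCI-EtOH, S-MP and S-EtOH cords; points are single arrays, 2 per group and time, and lines join their means. Col4a1 in SCI-EtOH cords (lowest 0.03 from 2 h on) sat above most sham cords, and Col3a1 and Col8a1 were high at 48 h in sham cords too.

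The response changed shape with time. At 2 to 6 h, 3 collagen genes rose and 0 fell (all genes: 18.4% higher and 16.7% lower). These 3 were Col4a1 (0.37 ± 0.11, adjusted p = 0.013), Col5a3, a minor fibrillar chain (0.29, adjusted p = 0.021), and Col11a1 (0.21, adjusted p = 0.033). The main fibrillar chains stood at 0.38 for Col1a1, 0.39 for Col1a2 and 0.38 for Col3a1, and none of these passed the test. Without both SCI-EtOH 6 h arrays, 8 collagen genes rose (all genes: 16.8%), Col1a2 (0.66, adjusted p = 0.021) and Col3a1 (0.65, adjusted p = 0.037) among them. Each rat of that pair pulled its own way, since 0 collagen genes rose without the first SCI-EtOH 6 h array (all genes: 14.1%) and 16 without the second (all genes: 26.0%).

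At 8 and 12 h, 5 rose and 1 fell (all genes: 18.5% and 20.5%). Col12a1 rose by 1.18 ± 0.23 (2.26-fold, adjusted p = 8.4e-05), Col1a2 by 0.98 ± 0.27 (1.97-fold, adjusted p = 0.0046) and Col14a1, another collagen of the fibril surface, by 0.79 (1.72-fold, adjusted p = 0.00034). Col3a1, the fibrillar chain of distensible tissue, rose by 0.72 ± 0.29 (1.64-fold, adjusted p = 0.047), and Col4a1 by 0.62 (1.54-fold, adjusted p = 0.00055). The Col3a1 call was lost on leaving out any 1 of 29 arrays. Col13a1, a membrane-spanning collagen, fell by 0.29 (adjusted p = 0.037). The sister chain of Col1a2, Col1a1, differed by 0.69 ± 0.35, which did not pass the test (adjusted p = 0.12). Col1a2 stood at 0.64, -0.03, 0.44 and 1.10 in the 4 SCI-EtOH cords and at -0.93, -0.04, -0.50 and -0.28 in the 4 S-EtOH cords. Col14a1 stood at 0.37, 0.49, 0.22 and 1.01 in SCI-EtOH cords and at -0.37, -0.10, -0.31 and -0.28 in S-EtOH cords. The 2 groups did not overlap for either gene, although for Col1a2 the lowest SCI-EtOH cord lay just above the highest S-EtOH cord.

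At 24 and 48 h, 3 rose and 6 fell (all genes: 25.4% and 22.2%). Col4a1 rose by 1.05 ± 0.14 (2.08-fold, adjusted p = 7.6e-08), Col12a1 by 0.95 (1.94-fold, adjusted p = 0.00062) and Col8a1 by 0.63 ± 0.26 (1.55-fold, adjusted p = 0.045). Col11a2 and Col11a1, which encode chains of type XI collagen, a collagen inside thin fibrils, fell by 0.67 (adjusted p = 8.0e-06) and 0.41 (adjusted p = 0.00036). Col23a1, a membrane collagen, fell by 0.32 (adjusted p = 0.029) and Col9a2, a collagen of cartilage fibril surfaces, by 0.30 (adjusted p = 0.031). The main fibrillar chains stood at -0.37 for Col1a1, -0.25 for Col1a2 and -0.12 for Col3a1, none past the test. Of the 10 fibrillar genes, 0 rose and 3 fell, with 9 below 0. Col11a2 stood at -0.53, -0.53, -0.996 and -0.66 in SCI-EtOH cords and at -0.00, -0.07, 0.05 and -0.00 in S-EtOH cords, so the groups were apart. Col4a1 stood at 0.74, 1.07, 0.61 and 1.18 in SCI-EtOH cords and at -0.09, -0.04, -0.20 and -0.28 in S-EtOH cords, with every injured cord above every sham cord. Quantile normalization turned Col8a1 at 24 and 48 h to -0.70 (adjusted p = 0.048).

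**Figure D2:**
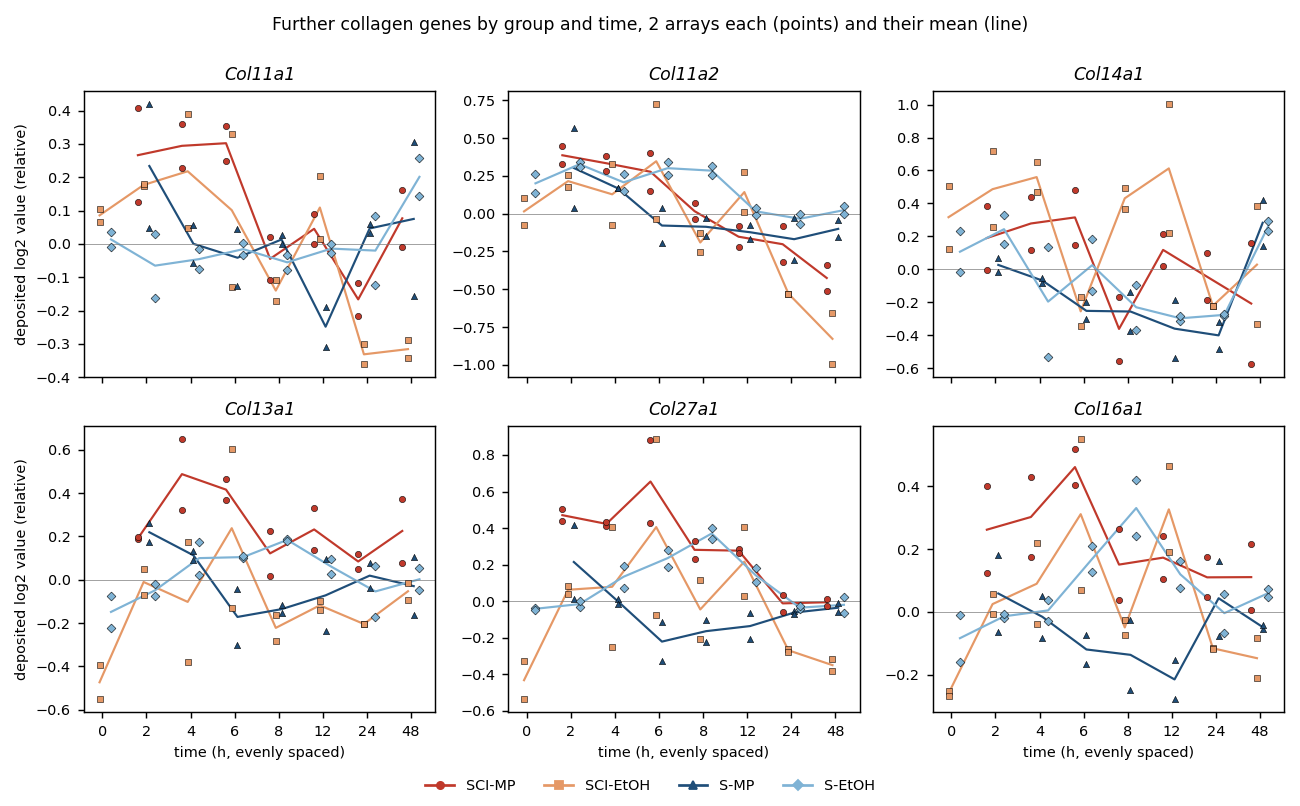
Deposited log2 values (relative, centred per probe set) of 6 further collagen genes against time in hours, evenly spaced, in SCI-MP, SCI-EtOH, S-MP and S-EtOH cords; points are single arrays, 2 per group and time, and lines join their means. Col11a1 and Col11a2 in SCI-EtOH cords lay lowest at 24 and 48 h, and Col13a1 and Col27a1 in SCI-EtOH cords were low at 0 h already.

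The change of the injury difference with time was tested directly, as the SCI-EtOH minus S-EtOH difference at 24 and 48 h less that at 2 to 6 h. It was positive for 1 collagen gene and negative for 4 (all genes: 16.7% and 14.8%). Col4a1 gained 0.69 (adjusted p = 0.0030), while Col11a2 lost 0.63 (adjusted p = 0.0013), Col11a1 0.62 (adjusted p = 0.00013), Col23a1 0.49 (adjusted p = 0.015) and Col5a3 0.46 (adjusted p = 0.020). All 10 fibrillar genes were below 0 in this contrast, 3 of them past the test. Without both SCI-EtOH 6 h arrays 1 was positive and 6 negative (all genes: 16.7% and 15.8%), with Col4a1 at 0.75 and Col11a1 at -0.65. The negative count also moved when either of these arrays alone was left out. Under quantile normalization 0 were positive, with Col4a1 at 0.36 (adjusted p = 0.17), and 2 negative (all genes: 5.61% and 6.95%). Over the 3 periods of injury, 11 collagen genes passed the test in none, 11 in 1, 2 in 2 and 1, Col4a1, in 3. Col12a1 was higher in both of its periods, and Col11a1 was higher at 2 to 6 h and lower at 24 and 48 h.

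Some collagen genes also shifted with time in sham cords. In S-EtOH cords, both 48 h arrays lay above all 12 arrays from 0 to 12 h for 8 collagen genes, namely Col1a1, Col1a2, Col3a1, Col5a1, Col5a2, Col8a1, Col11a1 and Col12a1. Col3a1 reached 1.33 and 1.36 at 48 h, against a highest value of 0.27 up to 12 h, and Col8a1 reached 1.40 and 1.28, against 0.27. In S-MP cords the same held for 5 genes (10 arrays up to 12 h), and Col3a1 stood at 0.97 and 1.82 at 48 h. At 48 h Col3a1 thus stood at 1.22 and 0.80 in SCI-EtOH cords and at 1.33 and 1.36 in S-EtOH cords, as high in sham as in injured cords. These shifts are a description and were not tested. They were not counted over all genes, so they are not shown to be particular to collagens.

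Set by set, the methods of the study compare the 4 groups at each time. By a moderated F test followed by Tukey's range test, 11 collagen genes differed between SCI-EtOH and S-EtOH cords at 1 time or more (all genes: 58.4%), 6 between SCI-MP and SCI-EtOH cords (39.6%) and 2 between S-MP and S-EtOH cords (11.9%). With injury and no MP, Col12a1 rose in SCI-EtOH cords at each time but 2 and 6 h, and Col4a1 at each time from 8 h on. At 2 and 6 h 0 collagen genes passed. With the plain analysis of variance and Tukey's test on the same arrays, 2, 1 and 0 collagen genes passed after adjustment (all genes: 28.3%, 14.8% and 5.96%), and 10, 5 and 5 before it (all genes: 55.2%, 38.0% and 16.3%).

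At 0 h, 0 collagen genes rose and 0 fell between SCI-EtOH and S-EtOH cords (all genes: 0.0279% and 0.014%), and 0 higher and 3 lower reached an unadjusted p under 0.05 in limma. Some members nonetheless stood apart. Col27a1, a fibrillar chain known from cartilage, stood at -0.33 and -0.54 in SCI-EtOH cords and at -0.04 and -0.05 in S-EtOH cords. Col13a1 stood at -0.40 and -0.55 in SCI-EtOH cords and at -0.22 and -0.08 in S-EtOH cords, and Col2a1, the main chain of cartilage fibrils, at -0.43 and -0.39 in SCI-EtOH cords and at -0.13 and -0.05 in S-EtOH cords. Col1a1 (-0.09), Col3a1 (-0.04) and Col4a1 (0.05) differed little. When the 0 h difference was taken off the SCI-EtOH values, which adds the error of 4 arrays, the injury calls at 24 and 48 h that remained were Col4a1 (1.01, adjusted p = 0.0017) and Col11a1 (-0.49, adjusted p = 0.024), and 0 remained for the mean of 2 to 48 h, where Col4a1 stood at 0.59 (adjusted p = 0.062) and Col12a1 at 0.61 (adjusted p = 0.28). Of all genes, 9.56% were then higher and 15.3% lower at 24 and 48 h, and 3.24% and 9.15% over 2 to 48 h.

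Contusion under MP was read as SCI-MP minus S-MP cords. Averaged over 2 to 48 h, 15 collagen genes rose and 0 fell (all genes: 21.7% and 33.3%), with all 25 differences above 0. The median was 0.21, against 0.00 over all genes. Col12a1 rose by 0.91 (adjusted p = 6.1e-08), Col4a1 by 0.66 (adjusted p = 1.8e-09), Col8a1 by 0.40 (adjusted p = 0.016) and Col27a1 by 0.36 (adjusted p = 4.5e-05). The main fibrillar chains stood at 0.17 for Col1a1, 0.16 for Col1a2 and 0.32 for Col3a1, none past the test. Col4a1 spanned -0.20, 0.45 and 0.95 in 14 SCI-MP cords and -0.48, -0.28 and -0.02 in 14 S-MP cords, and 10 of the 14 SCI-MP cords lay above every S-MP cord. This comparison had no 0 h arrays to set it against.

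The effect of MP in the injured cord was read as SCI-MP minus SCI-EtOH cords. Averaged over 2 to 48 h, 9 collagen genes rose and 1 fell, while of all genes 10.4% rose and 31.7% fell. The median collagen difference was 0.12, against -0.06 over all genes. Without both SCI-EtOH 6 h arrays, 13 rose and 4 fell (all genes: 11.5% and 32.8%). The values that follow include them. Col13a1 rose by 0.32 ± 0.06 (1.25-fold, adjusted p = 6.9e-05), Col2a1 by 0.29 (adjusted p = 0.00056), Col27a1 by 0.28 (adjusted p = 0.0014) and Col9a1, a collagen of cartilage fibril surfaces, by 0.22 (adjusted p = 0.00071). Col4a3 and Col4a4, chains of the specialised basement membrane network whose promoters overlap, rose by 0.21 (adjusted p = 0.00054) and 0.16 (adjusted p = 0.0014). Col7a1, Col16a1 and Col11a1 rose as well. Col4a1 fell by 0.19 ± 0.07 (adjusted p = 0.042), a call lost on leaving out any 1 of 17 arrays. Col1a2 (-0.34 ± 0.15, adjusted p = 0.059), Col1a1 (-0.18) and Col3a1 (-0.07) did not pass.

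By array, Col13a1 spanned 0.02, 0.21 and 0.65 in 14 SCI-MP cords and -0.38, -0.11 and 0.61 in 14 SCI-EtOH cords. Col27a1 spanned -0.06, 0.31 and 0.88 in SCI-MP cords and -0.38, -0.03 and 0.89 in SCI-EtOH cords. The groups overlapped for both genes.

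At 2 to 6 h, 7 rose and 0 fell (all genes: 3.71% and 22.9%), led by Col4a3 (0.36, adjusted p = 0.00030), Col27a1 (0.33, adjusted p = 0.019), Col13a1 (0.32, adjusted p = 0.0091) and Col2a1 (0.29, adjusted p = 0.028). Without both SCI-EtOH 6 h arrays, 10 rose and 1 fell (all genes: 4.23% and 23.2%), the 1 being Col1a2 (-0.59, adjusted p = 0.044). Col12a1 was higher in SCI-MP cords at 6 h alone (1.42, past Tukey's range test), where it stood at 0.91 and 0.59 in SCI-MP cords and at -0.21 and -1.13 in the SCI-EtOH pair that stood apart. In place of 7 rises there were 2 with array weights (all genes: 0.866%) and 0 with only the arrays of the contrast in the fit (all genes: 0.908%). Leaving out the first SCI-EtOH 6 h array gave 14 (all genes: 4.96%) and the second 1 (all genes: 5.83%).

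At 8 and 12 h, 1 rose and 2 fell (all genes: 6.95% and 10.8%). Col1a2 fell by 0.81 ± 0.27 (0.57-fold, adjusted p = 0.036) and Col14a1 by 0.64 ± 0.17 (0.64-fold, adjusted p = 0.0073), while Col13a1 rose by 0.35 (adjusted p = 0.029). These calls were lost on leaving out any 1 of 6 arrays for Col1a2, 5 for Col13a1 and 2 for Col14a1 (the second SCI-EtOH array at 12 h and the first SCI-MP array at 8 h). Quantile normalization, array weights and only the arrays of the contrast each gave 0 higher and 1 lower. Of all genes they called 2.7%, 4.77% and 2.6% higher and 4.06%, 6.4% and 4.11% lower, in that order. Col1a1 (-0.66, adjusted p = 0.19), Col3a1 (-0.43) and Col4a1 (-0.35, adjusted p = 0.078) did not pass. Col14a1 stood at -0.56, -0.17, 0.21 and 0.02 in the 4 SCI-MP cords and at 0.37, 0.49, 0.22 and 1.01 in the 4 SCI-EtOH cords, which placed each SCI-MP cord below every SCI-EtOH cord by a narrow margin. Col1a2 stood at -0.72, -0.43, -0.05 and 0.12 in SCI-MP cords and at 0.64, -0.03, 0.44 and 1.10 in SCI-EtOH cords, and these overlapped. At 8 h alone Col4a1 was lower in SCI-MP cords (-0.88, past Tukey's range test), at -0.05 and 0.17 in SCI-MP cords and at 1.18 and 0.70 in SCI-EtOH cords.

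At 24 and 48 h, 6 rose and 0 fell (all genes: 3.27% and 10.6%). Col2a1 rose by 0.41 (adjusted p = 0.020), Col11a2 by 0.37 (adjusted p = 0.029), Col9a1 by 0.34 (adjusted p = 0.012) and Col11a1 by 0.28 (adjusted p = 0.041), and Col4a3 and Col4a4 by 0.27 and 0.22. All 10 fibrillar genes were above 0 and 3 of them passed. Col11a2 stood at -0.32, -0.08, -0.34 and -0.51 in SCI-MP cords and at -0.53, -0.53, -0.996 and -0.66 in SCI-EtOH cords, so both groups lay at or below 0 and did not overlap. Col4a1 (-0.20), Col1a1 (0.29), Col1a2 (0.10) and Col3a1 (0.09) did not pass. Under quantile normalization or with only the arrays of the contrast in the fit 0 collagen genes rose at 24 and 48 h (all genes: 0.0209% in each), and 1 rose without the second SCI-EtOH 48 h array (all genes: 2.53%).

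**Figure D3:**
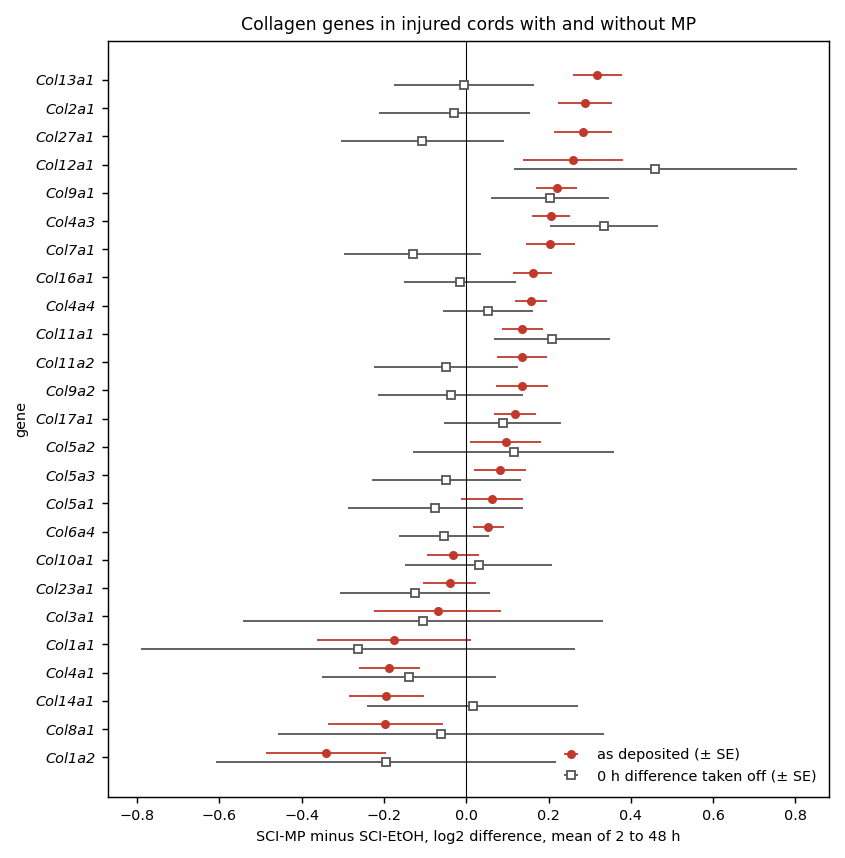
SCI-MP minus SCI-EtOH log2 difference, mean of 2 to 48 h, for the 25 collagen genes, as deposited (filled points) and after the SCI-EtOH minus S-EtOH difference at 0 h was taken off the SCI-EtOH values (open squares), with bars of 1 SE. Col13a1, Col2a1 and Col27a1, at 0.32, 0.29 and 0.28 as deposited, stood at -0.01, -0.03 and -0.11 once the 0 h difference was taken off. SCI-MP values were not changed, as there were no SCI-MP arrays at 0 h.

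The MP rises moved with other measures. After the 0 h difference was taken off SCI-EtOH cords, 0 of the 9 rises remained. Of all genes, 0.014% were then higher and 0.0419% lower, so few genes of any kind passed. This setting takes the 0 h difference as absent from SCI-MP cords, which had no 0 h arrays. Whether SCI-MP cords shared it was not tested. Of the 9, 5 changed sign, Col13a1 (-0.01), Col16a1 (-0.01), Col2a1 (-0.03), Col27a1 (-0.11) and Col7a1 (-0.13), whereas Col4a3 stood at 0.34 (adjusted p = 0.56) and Col9a1 at 0.20. The markers of skeletal muscle, a tissue beside the exposed cord that should be absent from it, were higher in SCI-MP than SCI-EtOH cords for 3 of 4 genes over 2 to 48 h (median 0.32, with Ckm at 0.31 and Acta1 at 0.35). Their mean level over 2 to 48 h ranged from -0.07 to 0.70 in SCI-MP cords and from -0.29 to 0.15 in SCI-EtOH cords. The ranges overlapped at 2 to 6 h (0.05 to 0.70 in SCI-MP and -0.15 to 0.15 in SCI-EtOH cords) and at 8 and 12 h (-0.07 to 0.42 in SCI-MP and -0.18 to 0.06 in SCI-EtOH cords), and were apart at 24 and 48 h (0.03 to 0.17 in SCI-MP and -0.29 to -0.07 in SCI-EtOH cords). Cartilage and bone markers were higher for 3 of 5 (Acan 0.19). Their part in the result was not tested.

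In sham cords few collagen genes passed the test with MP. For S-MP minus S-EtOH over 2 to 48 h, 0 rose and 1 fell (all genes: 5.63% and 4.22%). The 1 was Col16a1, a collagen of fibril and basement membrane borders (-0.16, adjusted p = 0.033), a call lost on leaving out any 1 of 14 arrays. Of the 25 differences over 2 to 48 h, 21 lay below 0 (median -0.07, against 0.00 over all genes). Unadjusted, 0 were higher and 5 lower. At 2 to 6 h 0 rose and 0 fell (all genes: 0.531% and 0.642%), and at an unadjusted p under 0.05 in limma 0 were higher and 1 lower. At 8 and 12 h 0 rose and 2 fell (all genes: 3.5% and 1.61%), Col4a1 by 0.47 (adjusted p = 0.044) and Col16a1 by 0.40 (adjusted p = 0.0090). There 22 of 25 differences lay below 0 (median -0.15, against 0.02 over all genes), and unadjusted 0 were higher and 8 lower. At 24 and 48 h 0 rose and 0 fell (all genes: 0.00698% and 0.147%), and unadjusted 0 and 0. Col4a1 stood at -0.09, -0.29, -0.48 and -0.36 at 8 and 12 h in S-MP cords and at 0.23, 0.39, -0.00 and 0.03 in S-EtOH cords, every S-MP cord being lower. That Col4a1 call was lost on leaving out any 1 of 14 arrays. Over 2 to 48 h Col1a1 (-0.09), Col1a2 (-0.13), Col3a1 (-0.05) and Col4a1 (-0.21, adjusted p = 0.062) did not pass. Other settings called more. Under quantile normalization 6 collagen genes were lower over 2 to 48 h (all genes: 13.4%) and 11 at 8 and 12 h (all genes: 9.23%). With only the arrays of the contrast in the fit, 5 were lower over 2 to 48 h (all genes: 9.38%) and 6 at 8 and 12 h (all genes: 3.39%).

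Whether MP acted differently in injured and sham cords was tested as the interaction, SCI-MP minus SCI-EtOH less S-MP minus S-EtOH. It was positive for 9 collagen genes and negative for 0 (all genes: 5.45% and 20.2%), with a median of 0.13 against -0.06. Col27a1 had the largest value of these 9, 0.46 (adjusted p = 0.00089), followed by Col13a1 (0.38, adjusted p = 0.0014), Col2a1 (0.35, adjusted p = 0.0045) and Col16a1 (0.32, adjusted p = 0.00083). The genes raised most by injury were not among them: Col4a1 stood at 0.03, Col12a1 at 0.11 and Col8a1 at -0.01. Col1a1 (-0.09), Col1a2 (-0.21) and Col3a1 (-0.02) did not pass. With the 0 h difference taken off, 0 of 9 remained, and 0% of all genes passed. That setting could thus not tell collagens from other genes. As deposited but without both SCI-EtOH 6 h arrays, 12 were positive and 0 negative (all genes: 7.13% and 23.7%). The interaction uses the same SCI-EtOH and S-EtOH arrays as the comparisons above and is not separate evidence.

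**Figure D4:**
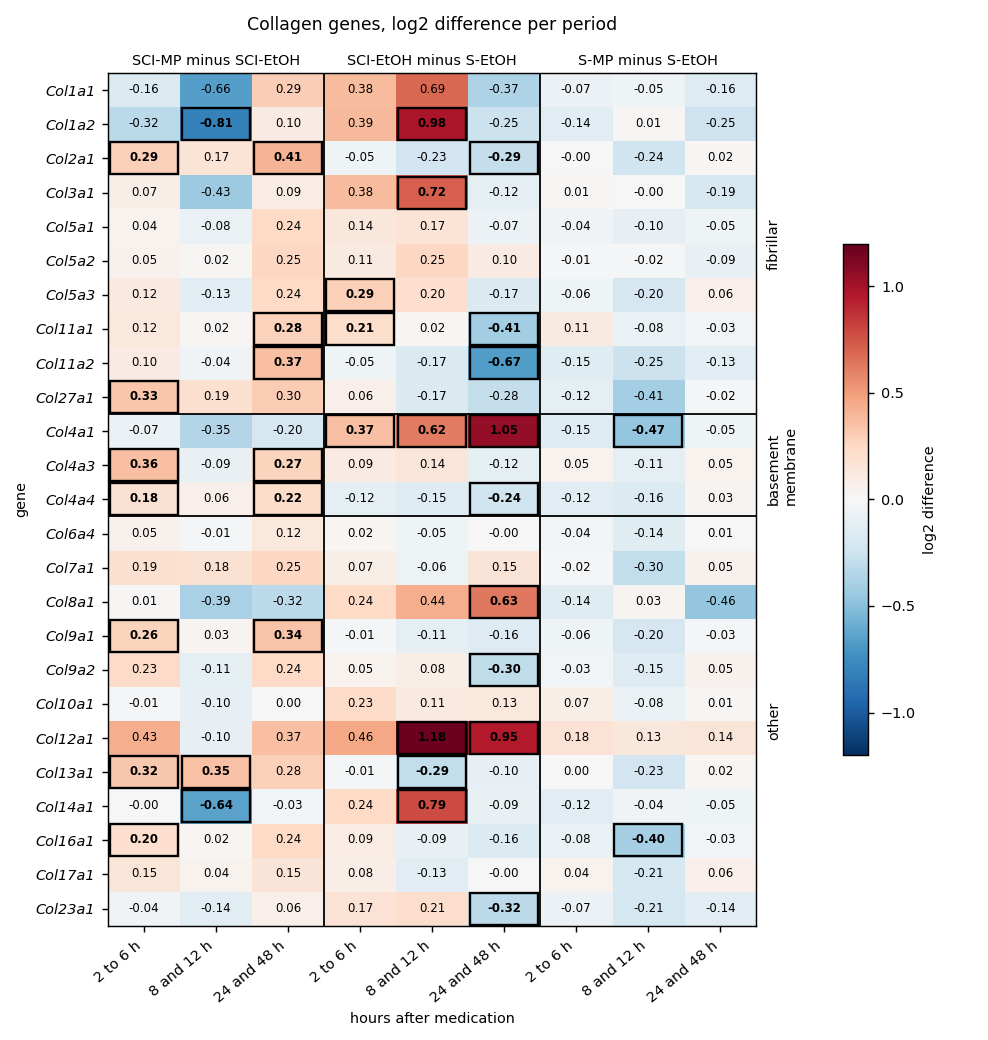
Log2 differences of the 25 collagen genes for SCI-MP minus SCI-EtOH, SCI-EtOH minus S-EtOH and S-MP minus S-EtOH cords in each of 3 periods, as a colour and a printed value; boxed bold values passed limma's adjusted p of 0.05. At 8 and 12 h, Col1a2 stood at -0.81 for SCI-MP minus SCI-EtOH and Col12a1 at 1.18 for SCI-EtOH minus S-EtOH cords.

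Genes that make, secrete and anchor collagen were counted with the same test, beside all genes at 35.1% higher and 27.5% lower over 2 to 48 h, and 25.4% and 22.2% at 24 and 48 h. Among enzymes and chaperones that fold and modify collagen, 13 of 15 measured rose and 0 fell in SCI-EtOH over S-EtOH cords over 2 to 48 h, with a median of 0.36. P4ha2 and P4ha1, prolyl hydroxylases that stabilise the helix, rose by 0.73 and 0.55, and Serpinh1, a collagen chaperone, by 0.39. At 24 and 48 h, 12 of 15 rose (median 0.77), Plod2, which modifies lysines for cross-links, by 0.96. Of 11 secretion and cross-linking genes 5 rose and 2 fell, with the lysyl oxidases Lox, Loxl1 and Loxl2 at 0.69, 0.84 and 0.81. Of 7 basement membrane partners 4 rose and 2 fell, Nid2, which links laminin to type IV collagen, by 1.27 and Lamc1 by 0.76, while Agrn fell by 0.37. Of 6 fibril partners 4 rose, Fn1 by 1.04 and Dcn by 0.56. Of 8 collagen receptors 4 rose, Itga1 by 0.85, and 1, Ddr1, fell by 0.24. All 6 growth factors that raise collagen rose, Ccn2 by 1.52 and Tgfb1 by 0.77.

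With MP in injured cords most called genes of these lists fell. Of the folding and modification genes 0 rose and 7 fell, Plod1 by 0.51. Of the secretion and cross-linking genes 0 rose and 2 fell, of the basement membrane partners 0 and 5 (Nid2 by 0.58), of the fibril partners 0 and 1, of the receptors 0 and 2, and of the growth factors 1 and 3 (Tgfb3 by 0.36). Across all genes 10.4% rose and 31.7% fell in this comparison, so most called genes of any kind fell too. In sham cords 0 partner genes rose with MP, and 1, a receptor, fell (all genes: 5.63% and 4.22%).

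Cell markers were counted with the same test. Beside them, 35.1% of all genes rose and 27.5% fell with injury over 2 to 48 h, and 25.4% and 22.2% at 24 and 48 h. Over 2 to 48 h in SCI-EtOH against S-EtOH cords, 5 of 5 endothelial markers rose (median 0.41, Cdh5 by 0.74), 4 of 7 markers of pericytes and vascular smooth muscle rose and 2 fell, and 3 of 3 red cell markers rose. Of 8 markers of meningeal and perivascular fibroblasts 2 rose and 0 fell, and at 24 and 48 h 1 rose and 3 fell, with Pdgfra up by 0.93 and Ogn down by 0.78. The mean fibroblast marker level at 24 and 48 h ranged from -0.32 to 0.20 in SCI-EtOH cords and from 0.02 to 0.37 in S-EtOH cords. Astrocyte markers fell for 3 of 3, oligodendrocyte markers rose for 1 and fell for 2 of 3, and Schwann cell markers rose for 2 of 3. Skeletal muscle markers fell for 3 of 4, and cartilage and bone markers rose for 1 and fell for 1 of 5. With MP in injured cords, 2 of 5 endothelial markers, 4 of 7 pericyte markers, 3 of 8 fibroblast markers and 4 of 5 neutrophil and macrophage markers fell. Of all genes 31.7% fell in that comparison, so 2 of 5 and 3 of 8 lay near the background. Their part in the collagen results was not tested.

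The collagens differed in how far the 2 rats of a pair lay apart. Col1a1 had a pooled SD within pairs of 0.55 in SCI-MP, 0.74 in SCI-EtOH, 0.40 in S-MP and 0.27 in S-EtOH cords, and Col8a1 of 0.48 in SCI-MP, 0.43 in SCI-EtOH, 0.36 in S-MP and 0.28 in S-EtOH cords. Col4a1 was tighter, at 0.23 in SCI-MP, 0.29 in SCI-EtOH, 0.16 in S-MP and 0.07 in S-EtOH cords. The whole range over 60 arrays ran from 0.55 in Col6a4 to 3.57 in Col8a1. Col1a1 passed the test in none of the comparisons above.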

How the data were processed

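The deposited table held log2 values, made by the authors with RMA (background correction, quantile normalization and summary of probe sets) and then normalised per chip and per gene in GeneSpring. Genes were named from the array annotation (15097 probe sets with 1 symbol, 323 with several, 11922 with none), with symbols updated through gene IDs to RefSeq. Probe sets with a CV over 50% in most of the 30 duplicate pairs were left out, and probe sets of a gene averaged. All 60 arrays entered 1 linear model with a mean for each combination of group and hour (limma version 3.58.1 in R 4.3.3), and contrasts were taken over 2 to 48 h, 3 periods, 0 h and the interaction. P-values were adjusted by Benjamini and Hochberg over 14324 genes, at 0.05. Each group and time had 2 rats, which limits the precision. Named genes were Col1a1, Col1a2, Col3a1 and Col4a1, plus the 4 largest rises and falls per comparison past the threshold; others were added after their values were seen. The genes, classes, partner lists and markers were chosen with earlier results of these data known. Scripts were tested on simulated data.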

Additional observations from a re-analysis of the deposited data

Results flagged for a closer look

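A test of the difference between injured and sham cords in their MP effect over 2 to 48 h picked out 9 collagen genes. In all 9 the MP difference was higher in injured cords (all genes: 5.45% higher and 20.2% lower). The log2 interaction was 0.46 for Col27a1, 0.38 for Col13a1, 0.35 for Col2a1, 0.32 for Col16a1, 0.31 for Col9a1, 0.31 for Col11a2, 0.28 for Col7a1, 0.25 for Col4a4 and 0.20 for Col4a3, with limma adjusted p between 0.00083 and 0.020. With the 0 h difference taken off, 0% of all genes passed, Col27a1 stood at 0.07 and Col7a1 at -0.05.

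A test of the injury difference between periods picked out 5 collagen genes (all genes: 16.7% positive and 14.8% negative). The SCI-EtOH minus S-EtOH difference at 24 and 48 h less that at 2 to 6 h was 0.69 for Col4a1, -0.46 for Col5a3, -0.49 for Col23a1, -0.62 for Col11a1 and -0.63 for Col11a2, with limma adjusted p between 0.00013 and 0.020.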

How the results depend on the processing

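Each group and time held 2 rats, and the 2 rats of SCI-EtOH at 6 h disagreed. In the following, A is SCI-EtOH minus S-EtOH, B is SCI-MP minus SCI-EtOH and D is S-MP minus S-EtOH, each over 2 to 48 h unless a period is given. The cause of a change was not tested unless the setting itself names it. The choice of probe set and the noise filter changed no count by over 1.5 times, but both had little to act on. The filter kept 27338 of 27342 probe sets and all 25 collagen genes, where the study's own filter kept fewer probe sets. Only Col6a4 among the collagens was read by more than 1 probe set. Below, counts after leaving out 1 array, and in sets at any time, have no share over all genes beside them. They describe only how calls moved.

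Duplicate numbers showed no pairing common to all groups. Over 435 pairs of groups the correlation of deviations ran from -0.57 to 0.54 (median 0.01), with 109 over 0.1. A pairing shared by only some groups was not tested. With the replicate block, Col3a1 in A at 8 and 12 h stayed at 0.72 with adjusted p = 0.051, so 4 genes rose there in place of 5, and no other call counted here moved by over 1.5 times.

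Quantile normalization, which gives injured and sham arrays the same spread, gave 3 higher in A, 2 lower in A at 2 to 6 h, 3 higher and 2 lower in A at 8 and 12 h, 0 lower in B, 0 higher and 1 lower in B at 8 and 12 h, 0 higher in B at 24 and 48 h, 6 lower in D, 1 lower in D at 2 to 6 h, 11 lower in D at 8 and 12 h, 0 higher and 2 lower in the change of A with time, and 13 genes in the sham set at any time. It turned Col8a1 in A at 24 and 48 h (-0.70), Col3a1 in D at 2 to 6 h (-0.042) and at 8 and 12 h (0.12), Col1a1 in D at 8 and 12 h (0.061) and the Col3a1 interaction (0.060). Over all genes it called 32.2% higher in A, 19.6% lower at 2 to 6 h, and 17.4% higher and 16.8% lower at 8 and 12 h. In B it called 19.5% lower, 2.7% higher and 4.06% lower at 8 and 12 h, and 0.0209% higher at 24 and 48 h. In D it called 13.4% lower, 6.07% at 2 to 6 h and 9.23% at 8 and 12 h. The change of A with time had 5.61% higher and 6.95% lower. Array medians at 0 gave 1 lower in A at 2 to 6 h (all genes: 18.9%) and 2 lower in A at 8 and 12 h (21.2%). They gave 0 lower in B (27.1%) and 6 in the sham set. Over all genes, the share of calls that were higher was 52.5% in A at 2 to 6 h and 40.8% with medians at 0, 13.9% in B at 2 to 6 h and 27.0% (quantile) or 26.6% (medians at 0), 23.6% in B at 24 and 48 h and 12.5% (quantile), 4.55% in D at 24 and 48 h and 27.0% (quantile), 21.2% in the interaction and 31.2% (quantile), and 66.7% at 0 h and 50.0% with medians at 0.

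Array weights gave 0 lower in A at 8 and 12 h, 0 lower in B, 2 higher in B at 2 to 6 h, 0 higher and 1 lower in B at 8 and 12 h, 1 higher in B at 24 and 48 h, 5 lower in D, 7 lower in D at 8 and 12 h, 4 lower at 0 h and 12 in the sham set. Over all genes they called 18.4% lower in A at 8 and 12 h, 22.5% lower in B and 0.866% higher in B at 2 to 6 h. In B they called 4.77% higher and 6.4% lower at 8 and 12 h, and 0.691% higher at 24 and 48 h. In D they called 10% lower and 6.39% at 8 and 12 h, and between SCI-EtOH and S-EtOH at 0 h 2.65%. With only the arrays of the contrast in the fit, B had 0 lower, 0 higher at 2 to 6 h, 0 higher and 1 lower at 8 and 12 h and 0 higher at 24 and 48 h, D had 5 lower and 6 lower at 8 and 12 h, and the sham set 4. Over all genes that fit called 21.2% lower in B, 0.908% higher at 2 to 6 h and 0.0209% higher at 24 and 48 h. At 8 and 12 h it called 2.6% higher and 4.11% lower in B. In D it called 9.38% lower, and 3.39% at 8 and 12 h. The plain analysis of variance gave 2, 1 and 0 in the sets of A, B and D.

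Without all 6 h arrays, A had 5 lower, 5 higher at 2 to 6 h and 3 lower at 8 and 12 h, B had 4 lower, D had 0 lower and 5 lower at 8 and 12 h, the sets of B and D held 10 and 7, and Col3a1 in B at 2 to 6 h (-0.28) and the Col4a1 interaction (-0.045) turned. Over all genes A then had 27.8% lower, 13.2% higher at 2 to 6 h and 21.9% lower at 8 and 12 h. B had 29.9% lower, and D 3.41% lower and 2.49% lower at 8 and 12 h. Without both SCI-EtOH 6 h arrays, a choice made after seeing the data, A had 6 lower, 8 higher at 2 to 6 h and 3 lower at 8 and 12 h, B had 4 lower, 1 lower at 2 to 6 h and 10 higher at 24 and 48 h, D had 4 lower and 4 lower at 8 and 12 h, and Col3a1 in B at 2 to 6 h (-0.20) and the Col4a1 interaction (-0.0084) turned. Over all genes A then had 28.1% lower, 16.8% higher at 2 to 6 h and 22.2% lower at 8 and 12 h. B had 32.8% lower, 23.2% lower at 2 to 6 h and 4.16% higher at 24 and 48 h. D had 5.32% lower, and 2.8% at 8 and 12 h.

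Taking the 0 h difference off the SCI-EtOH values, which adds the error of 4 arrays, left 0 calls in A over 2 to 48 h, at 2 to 6 h and at 8 and 12 h, 1 higher and 1 lower in A at 24 and 48 h, and 0 in B in every period and in the interaction. It turned Col2a1 in A (0.15), Col13a1 in A at 8 and 12 h (0.033), Col2a1 in A at 24 and 48 h (0.029), Col13a1 (-0.0063), Col16a1 (-0.015), Col2a1 (-0.029), Col27a1 (-0.11) and Col7a1 (-0.13) in B, Col7a1 (-0.052) in the interaction, and Col27a1 (-0.057), Col13a1 (-0.0019) and Col2a1 (-0.027) in B at 2 to 6 h. Of all genes, 3.24% were then higher and 9.15% lower in A, and 0.412% and 0.747% at 2 to 6 h. The shares in A were 3.67% and 8.72% at 8 and 12 h, and 9.56% and 15.3% at 24 and 48 h. In B over 2 to 48 h they were 0.014% and 0.0419%, and in the interaction 0%. For B and the interaction this takes the 0 h difference as absent from SCI-MP cords, which had no 0 h arrays.

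Leaving out each array in turn gave, in A, 4 to 12 higher and 2 to 6 lower, 0 to 16 higher and 0 to 2 lower at 2 to 6 h, 3 to 5 higher and 0 to 3 lower at 8 and 12 h, 3 to 7 lower at 24 and 48 h, and 3 to 12 lower in the change with time. B had 8 to 14 higher and 0 to 3 lower, 1 to 14 higher and 0 to 1 lower at 2 to 6 h, 0 to 1 higher and 0 to 3 lower at 8 and 12 h, and 1 to 10 higher at 24 and 48 h. D had 0 to 4 lower, and 0 to 4 lower at 8 and 12 h. The sets of A, B and D held 8 to 17, 5 to 17 and 1 to 9. Many ends of these ranges came from SCI-EtOH at 6 h, replicate 1 or 2, and others from SCI-EtOH at 8 h replicate 1 or 12 h replicate 2 (4 higher in A), S-EtOH at 8 h replicate 1 (3 higher in A at 8 and 12 h), S-EtOH at 24 h replicate 2 (3 lower in A at 24 and 48 h), SCI-EtOH at 12 h replicate 2 (0 lower in B at 8 and 12 h), SCI-EtOH at 48 h replicate 2 (1 higher in B at 24 and 48 h) and S-MP at 12 h replicate 1 (0 lower in D at 8 and 12 h).

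Single genes whose sign turned when 1 array was left out had not passed the test in the main fit. In other settings genes that had passed did turn. Among them were Col8a1 in A at 24 and 48 h (quantile normalization) and Col2a1 in A (0 h difference taken off). The ranges below are for 1 array left out. Col1a1 ran from -0.032 to 0.78 in A at 2 to 6 h (0.78 without SCI-EtOH 6 h replicate 2, adjusted p = 0.011), -0.57 to 0.25 in B at 2 to 6 h, -0.089 to 0.67 in B at 24 and 48 h, -0.18 to 0.032, -0.19 to 0.091 and -0.43 to 0.12 in D at the 3 periods in turn, -0.26 to 0.089 in the interaction and -0.32 to 0.14 at 0 h. Col3a1 ran from -0.30 to 0.061 in A at 24 and 48 h, -0.18 to 0.046 in B, -0.18 to 0.32 in B at 2 to 6 h, -0.31 to 0.49 in B at 24 and 48 h, -0.12 to 0.023 in D, -0.16 to 0.18, -0.19 to 0.19 and -0.40 to 0.024 in D at the 3 periods, -0.13 to 0.096 in the interaction and -0.31 to 0.24 at 0 h. Col1a2 ran from -0.18 to 0.38 in B at 24 and 48 h and -0.21 to 0.23 in D at 8 and 12 h, and Col4a1 from -0.19 to 0.048 in B at 2 to 6 h, -0.14 to 0.038 in D at 24 and 48 h and -0.024 to 0.078 in the interaction.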
